A study of Homo sapiens with 16 samples.

Results

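Control peaks of RNA polymerase II (Pol II) that also held DNA topoisomerase II alpha (TOP2A) were compared with control Pol II peaks that did not. A Pol II peak was counted as holding TOP2A when at least 1 bp of a TOP2A peak lay on it, and 1188 of 87911 control Pol II peaks (1.35%) met this rule. Both proteins were mapped by chromatin immunoprecipitation and sequencing in wild type hTERT RPE-1 cells, a human line from the retinal pigment epithelium that was immortalised with telomerase. All cells were held for 48 h in medium with 0.1% serum and fixed for 10 min with 1% formaldehyde. Pol II was precipitated through its RPB1 subunit in 3 untreated libraries and 3 libraries given the DMSO vehicle for 30 min, and these 6 libraries share 1 peak list. TOP2A was precipitated in 2 untreated libraries, which also share 1 list of 1840 peaks. The study also mapped Pol II after the topoisomerase inhibitor merbarone and made 3 IgG libraries, and neither set entered these comparisons.

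A peak is an interval of the hg19 genome that the authors called as bound. Because the libraries of a condition are merged in a single list, replicate error could not be measured for any value given here and no test was run. No peak carried a height or a score, and the depth was unknown. Intervals in parentheses are 95% Wilson intervals, which cover counting only, since neighbouring peaks are not independent of each other.

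Pol II moving along DNA overwinds the helix ahead of it and underwinds it behind. TOP2A cuts both strands of a DNA duplex, passes another duplex through the break and reseals it, which removes supercoils of either sign. At many genes Pol II pauses a short way inside the gene before it is released into elongation.

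TOP2A peaks reached into the 250 bases before the start of 6 listed genes, whose lists are described with the genes below: RHOB, DUSP1, IRS2, HSPD1, PGK1 and LHX2. The promoters of the first 3 of these, in order of the number of TOP2A peaks nearby, are shown because part of a TOP2A peak lay before their start. They were chosen after the TOP2A positions were known. RHOB encodes a small GTPase of the early growth response, DUSP1 a phosphatase that switches off MAP kinases, and IRS2 an adaptor of the insulin receptor. The letters are the 250 bases before the RefSeq start in GRCh38.p14, given 5′ to 3′ along the gene: chr2:20446824-20447073 on the plus strand for RHOB, chr5:172771196-172771445 on the minus strand for DUSP1 and chr13:109786584-109786833 on the minus strand for IRS2. Capitals mark the TATA box (TATAAA), the GC box (GGGCGG) and the CCAAT box (CCAAT) wherever their letters stand on either strand, and neighbouring matches can overlap.
RHOB: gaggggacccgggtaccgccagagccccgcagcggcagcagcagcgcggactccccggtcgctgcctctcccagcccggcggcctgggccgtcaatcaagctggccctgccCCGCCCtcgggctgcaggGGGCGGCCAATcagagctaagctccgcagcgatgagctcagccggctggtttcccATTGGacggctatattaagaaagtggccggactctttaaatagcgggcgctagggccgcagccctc
DUSP1: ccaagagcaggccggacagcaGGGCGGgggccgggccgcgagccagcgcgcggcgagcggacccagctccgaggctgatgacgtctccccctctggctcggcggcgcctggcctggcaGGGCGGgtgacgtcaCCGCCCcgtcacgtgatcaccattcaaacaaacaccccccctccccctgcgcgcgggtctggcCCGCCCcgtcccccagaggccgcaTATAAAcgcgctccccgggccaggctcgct
IRS2: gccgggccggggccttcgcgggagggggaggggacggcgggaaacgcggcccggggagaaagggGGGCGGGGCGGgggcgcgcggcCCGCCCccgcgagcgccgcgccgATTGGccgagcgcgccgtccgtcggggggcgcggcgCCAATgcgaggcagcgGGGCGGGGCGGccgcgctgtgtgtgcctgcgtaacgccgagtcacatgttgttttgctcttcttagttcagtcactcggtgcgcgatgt
TOP2A covered 79 bp of the corresponding hg19 stretch at RHOB, 44 bp at DUSP1 and 55 bp at IRS2. A TATA box was matched in the DUSP1 window and in neither of the others. A GC box was matched in all 3 windows, and a CCAAT box in those of RHOB and IRS2. Among 27305 RefSeq promoters cut to the same length, 11.1% held a TATA box, 42.3% a GC box and 33.0% a CCAAT box. These shares describe all promoters, and listed genes with and without TOP2A were not compared.

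The Pol II peaks that held TOP2A varied widely in width. The narrowest spanned 136 bp, the median 1299 bp and the widest 30505 bp, while Pol II peaks without TOP2A had a median of 239 bp. Most held a single TOP2A peak, 1025 of 1188, while 122 held 2, 27 held 3, 8 held 4 and 6 held 5 or more. Within a Pol II peak that held several, neighbouring TOP2A midpoints stood a median of 362.5 bp apart, with quartiles of 215 and 620 bp (231 neighbouring pairs). The TOP2A peaks on Pol II were far shorter than the Pol II peaks, with a median of 89 bp and a range of 73 to 418 bp. Of 1419 overlaps between a TOP2A and a Pol II peak, 1318 lay wholly inside the Pol II peak and 101 crossed its edge.

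Few members stood near the limit of the rule. The longest overlap was 1 to 10 bp in 5 Pol II peaks and 11 to 36 bp in another 16. Just outside the rule, 8 Pol II peaks had TOP2A within 10 bp without overlapping it, 79 within 100 bp and 855 within 1 kb.

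The share of Pol II peaks with TOP2A was larger in wider peaks. It was 0.248% under 500 bp (163 of 65672), 2% from 500 bp to 1 kb (236 of 11799), 6.31% from 1 to 2 kb (496 of 7863), 10.4% from 2 to 5 kb (234 of 2250) and 18% at 5 kb or more (59 of 327). A wider peak offers more length to overlap. Per Mb of Pol II cover, midpoints of TOP2A peaks numbered 9.48 under 500 bp, 29.5 from 500 bp to 1 kb, 53.2 from 1 to 2 kb, 48.1 from 2 to 5 kb and 46.4 at 5 kb or more. Per length of Pol II, TOP2A was thus sparse in Pol II peaks under 500 bp and of like density in the classes from 1 kb up.

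At a given width, TOP2A was found more often on Pol II peaks that stood apart from other Pol II. Of Pol II peaks of 2 to 5 kb with no other Pol II peak within 5 kb, 31 of 129 held TOP2A (24.0%, 17.5 to 32.1). The share was 15.5% (12.8 to 18.6) with 1 to 4 others and 7.26% (6.07 to 8.68) with 5 or more. Among Pol II peaks of 1 to 2 kb the shares in the same order were 9.63%, 8.38% and 2.51%. From 500 bp to 1 kb they were 3.59%, 3.56% and 0.424%, so that there the fall lay between the crowded Pol II peaks and the rest. Under 500 bp they were 0.652%, 0.452% and 0.101%.

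**Figure D1:**
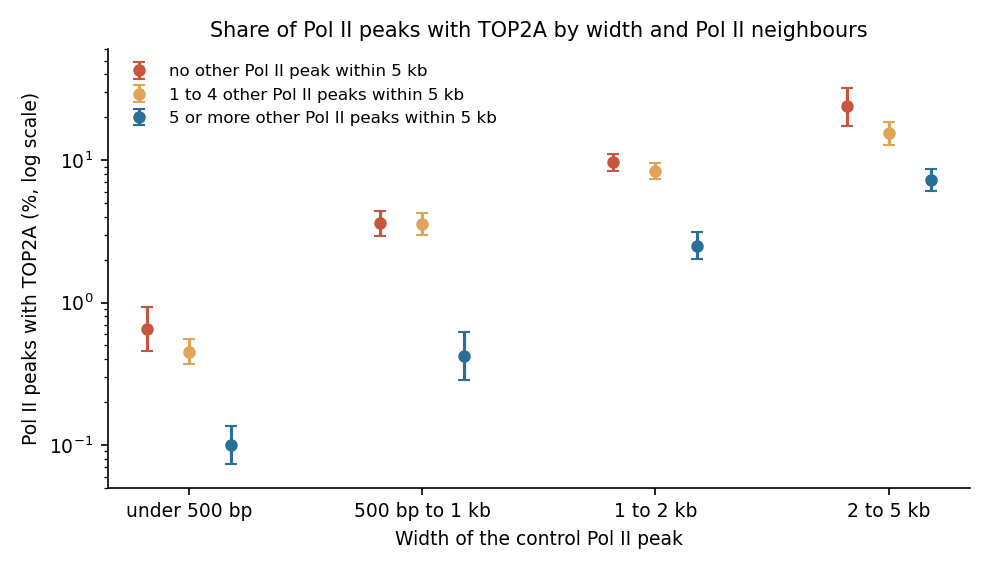
Share of control Pol II peaks that held TOP2A (vertical axis, percent, log scale) by the width of the Pol II peak (horizontal axis) and by the number of other Pol II peaks within 5 kb (colours), with points for the share and bars for its 95% Wilson interval. In each width class shown the crowded Pol II peaks lie lowest, at 0.101% under 500 bp and 7.26% from 2 to 5 kb.

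To compare neighbours at equal width, each Pol II peak with TOP2A was set against all Pol II peaks without TOP2A on its own chromosome whose width was within 10% of its own, each Pol II peak with TOP2A weighing the same. Matches were found for 1172 of the 1188, with a median of 108 matches each, and the median width was 1282 bp with TOP2A and 1277 bp in the matches. The other 16 spanned 6656 to 30505 bp and had no match, so the comparison leaves out 16 of the 59 at 5 kb or more.

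Pol II peaks with TOP2A had fewer Pol II neighbours than their matches at every distance examined. They had a mean of 2.91 other Pol II peaks within 5 kb, against 5.88 for the matches, with medians of 1 and 5. Of the 1172, 972 (82.9%) had fewer neighbours than the mean of their own matches, which 55.8% of the matches themselves also had. Within 1 kb the means were 1.26 and 2.01, within 10 kb 4.57 and 9.58, and within 50 kb 14.6 and 28.3. The median gap to the nearest other Pol II peak was 179.5 bp with TOP2A and 106 bp in the matches, while the mean gaps were 22.8 and 11 kb.

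The length under other Pol II peaks gave the same order. Other Pol II peaks covered a mean of 14.4% of the 5 kb flanks around Pol II peaks with TOP2A, against 29.1% around the matches, with medians of 5.02% and 20.5%. In the first 1 kb from the edges the cover was 22.5% against 35.5%, and from 1 to 5 kb it was 12.3% against 27.5%. It was 9.41% against 20.8% from 5 to 10 kb, and 6.51% against 12.5% from 10 to 50 kb. With Pol II peaks up to 1 kb apart joined, cover within 5 kb was 5.14% against 11.6%, so the size of this difference depends on how bound stretches are cut into peaks. The difference reached well past the peak itself, and in percentage points it was widest from 1 to 5 kb.

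**Figure D2:**
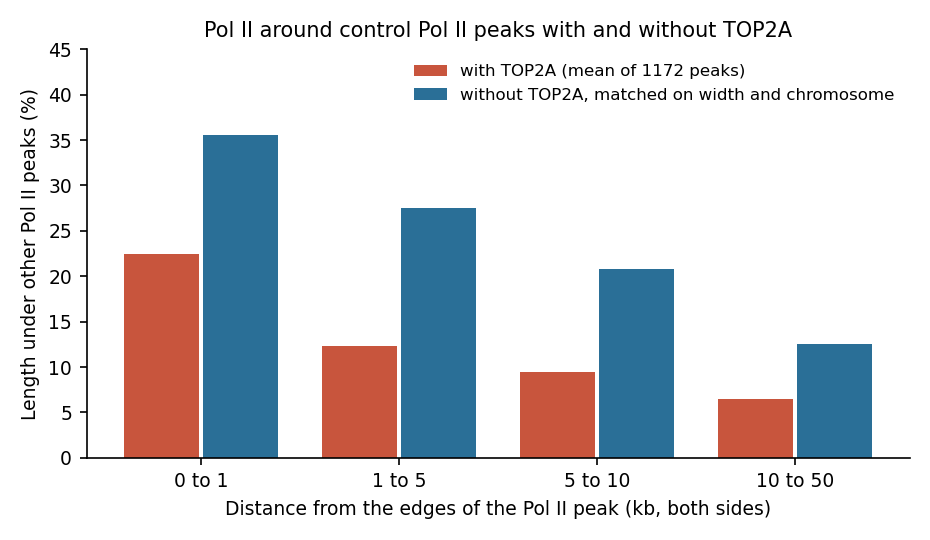
Mean share of the flanking length under other control Pol II peaks (vertical axis, percent) by distance from the edges of the Pol II peak (horizontal axis, kb, both sides together) for 1172 Pol II peaks with TOP2A and their matches without TOP2A. The bars with TOP2A are lower in each of the distance bands shown, at 12.3% against 27.5% from 1 to 5 kb.

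The emptier side of a Pol II peak differed more in proportion than the fuller side. Cover on the fuller side of Pol II peaks with TOP2A was 22.5% within 5 kb against 39.4% in the matches, and on the emptier side 6.21% against 18.8%. Other Pol II lay within 5 kb on 1 side only at 41.3% of Pol II peaks with TOP2A and at 26.8% of their matches. No other Pol II peak lay within 5 kb at 335 of 1172 (28.6%, 26.1 to 31.2) with TOP2A, against 16.8% of the matches. A Pol II peak with TOP2A therefore more often stood alone or at the edge of a bound stretch than a Pol II peak of like width without it.

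The direction was the same on all 23 chromosomes with Pol II peaks, both for the number of neighbours and for the cover within 5 kb. The sizes varied: on chromosome 8 cover was 6.92% with TOP2A and 27.9% in the matches, while on chromosome 22, with 11 matched Pol II peaks, it was 36.3% and 38.4%. Chromosomes 13 and X also stood close, at 18.9% against 21.6% and 14.9% against 17.7%.

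**Figure D3:**
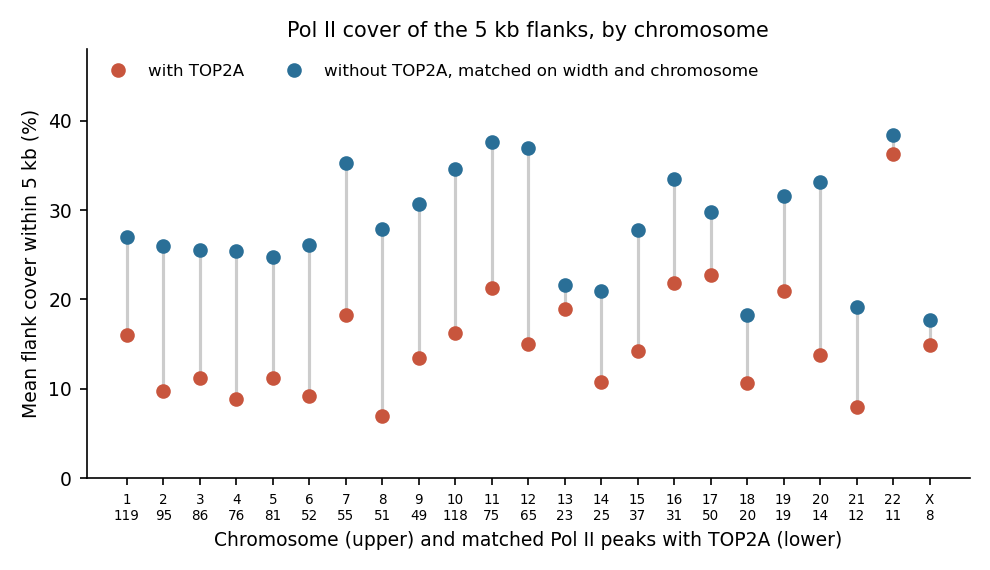
Mean share of the 5 kb flanks under other Pol II peaks (vertical axis, percent) on each chromosome (horizontal axis, with the number of matched Pol II peaks with TOP2A beneath) for Pol II peaks with TOP2A and their matches. The points with TOP2A lie below those of the matches on all 23 chromosomes, by least on chromosomes 22, 13 and X.

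The difference in neighbours was narrower among the widest Pol II peaks. From 500 bp to 1 kb the mean number of other Pol II peaks within 5 kb was 1.79 with TOP2A against 5.94 in the matches, and from 1 to 2 kb it was 2.17 against 4.71. From 2 to 5 kb it was 4.90 against 7.07, and at 5 kb or more, over 43 matched Pol II peaks, 6.74 against 7.29. Flank cover at 5 kb or more was 48.3% against 55.5%. Whether the difference itself varies with width was not tested.

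The 163 Pol II peaks under 500 bp with TOP2A had another pattern close by. Cover in their first 1 kb was 31.7%, near the 33.1% of the matches, but from 1 to 5 kb it was 11% against 27.3%. Their median gap to the nearest other Pol II peak was shorter than that of the matches, at 100 bp against 131 bp, in contrast to the order over all widths. Another Pol II peak with TOP2A stood within 1 kb of 25.2% of them, against 1.88% of their matches. Over all widths this was 8.79% against 2.14% within 1 kb, 11.9% against 7.01% within 10 kb, and 18.8% in both within 50 kb. With Pol II peaks up to 1 kb apart joined, 2.62% had another within 10 kb, against 3.38% of the matches. By construction, that joining turns Pol II peaks with TOP2A up to 1 kb apart into 1, so it removes the closest cases. With those up to 37 bp apart joined, the shares within 10 kb were 9.13% and 6.39%. A single TOP2A peak across neighbouring Pol II peaks makes each count for the other, and 1406 TOP2A peaks made 1419 overlaps. The matches hold no TOP2A, so they cannot be counted in this way. With at least 50% of the TOP2A peak inside, the shares within 10 kb were 10.2% and 6.98%. The parts of peak cutting and of shared TOP2A peaks in this closeness were not tested.

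Within Pol II peaks, TOP2A lay toward the middle. Midpoints of TOP2A that lay inside Pol II numbered 1379, and 1050 of them (76.1%, 73.8 to 78.3) fell in the middle 60% of the width of their Pol II peak. From the left edge to the right, the 10 equal parts of the Pol II peak held 46, 112, 166, 160, 204, 199, 169, 152, 113 and 58 midpoints. The middle pair of parts held 29.2% and the outermost pair 7.54%, where an even spread would put 20% in each. Left and right of the centre held 688 and 691 midpoints, where left and right follow the genome and not the direction of genes. The median distance to the nearer edge was 432 bp, against 317 bp for an even spread over the same Pol II peaks.

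The widest Pol II peaks differed in this. The share in the middle 60% was 78.2% (72.7 to 82.9) from 500 bp to 1 kb, 78.1% (74.5 to 81.3) from 1 to 2 kb and 79.4% (74.5 to 83.6) from 2 to 5 kb. At 5 kb or more it was 61.1% (51.8 to 69.5), close to the 60% of an even spread. The 113 midpoints of this class lay in at most 59 Pol II peaks, so they are not separate observations and the interval is too narrow. Under 500 bp the share was 69.5% (61.5 to 76.5). Differences between the classes were not tested. Pol II peaks with a single TOP2A peak had 76.4% and those with 2 or more 75.5%.

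**Figure D4:**
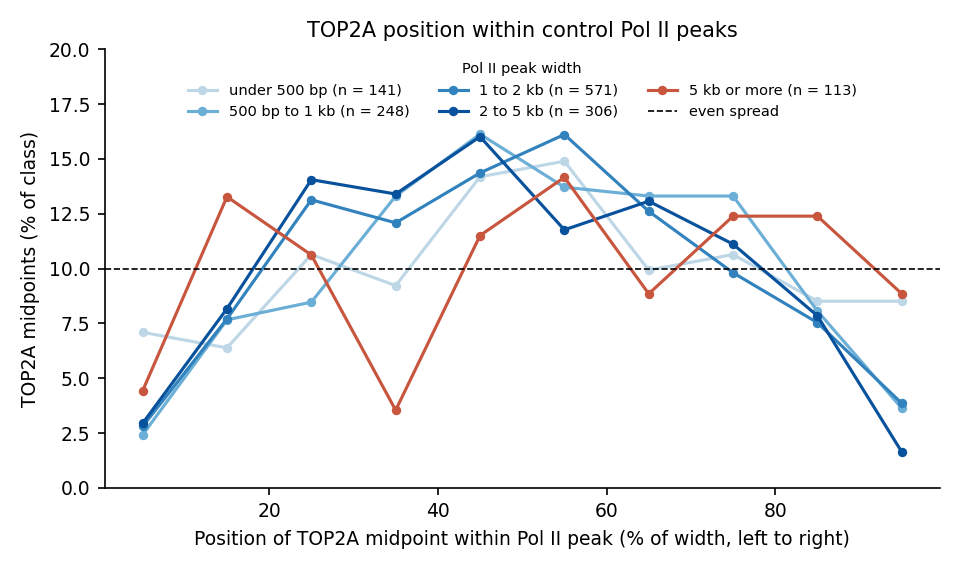
Share of the midpoints of TOP2A (vertical axis, percent of the width class) in each of 10 equal parts of the Pol II peak, left edge to right edge (horizontal axis, percent of width), with a line for each width class and a dashed line for an even spread. The classes from 500 bp to 5 kb rise toward the centre and fall at both edges, while the line for 5 kb or more has no single summit.

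The Pol II peaks with most TOP2A lay on well-known genes. Gene positions in hg19 were written from general knowledge for 229 genes in 7 lists, and 204 were kept whose chromosome, length and, where given, strand went with the RefSeq table. A Pol II peak at NEAT1, a nuclear noncoding RNA that builds paraspeckles, spanned chr11:65187269-65217773 and held 7 TOP2A peaks, all between 10.7% and 53.4% of its width. The Pol II peak at SIX3, a homeobox regulator of the eye and forebrain (chr2:45159630-45172390), also held 7, from 43.3% to 95.2% of its width. At ACTB, the gene of beta actin, a Pol II peak of 8059 bp (chr7:5563432-5571490) held 7 as well, between 5567591 and 5569828. ACTG1, the gene of gamma actin, held 6 in 9726 bp (chr17:79473966-79483691), and ZFP36L2, an RNA-binding protein that speeds mRNA decay, held 5 in 8972 bp (chr2:43446393-43455364).

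Some of the widest Pol II peaks held no TOP2A. The widest Pol II peak without TOP2A spanned 22037 bp at chr11:1753509-1775545, which reached into CTSD, the gene of a lysosomal protease, and the nearest TOP2A peak stood 6422 bp away. CTSD itself was not free of TOP2A: outside this Pol II peak it held 1 TOP2A peak, 3218 bp into the gene. The next was 19080 bp long at chr9:127103999-127123078, with TOP2A no nearer than 329997 bp. A Pol II peak of 15767 bp at chr20:47894218-47909984 had its nearest TOP2A peak 897800 bp away. In contrast, the 5 narrowest with TOP2A spanned 136 bp each, and TOP2A crossed an edge in 4 of them.

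Among the Pol II peaks with TOP2A that stood alone, the widest lay on VIM, which encodes the intermediate filament protein vimentin. It spanned 12412 bp (chr10:17269686-17282097), held 3 TOP2A peaks between 14.6% and 22.8% of its width, and had its next Pol II peak 11084 bp away. The next in width lay on DDIT4, an inhibitor of mTOR signalling (chr10:74032383-74037430), with 1 TOP2A peak. A Pol II peak of 3036 bp at chr5:83677842-83680877 held 3 TOP2A peaks, with no other Pol II for 659420 bp.

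At the starts of listed genes, TOP2A was not found without Pol II. Of the 204 listed genes, 176 had a control Pol II peak within 1 kb of the start and 50 of these (28.4%, 22.3 to 35.5) also had TOP2A within 1 kb, while 0 genes had TOP2A without Pol II. The lists were not drawn at random and were written with earlier results of these data known, so their shares describe these genes and not the genome. A TOP2A peak lay within 5 kb of the start of 60 genes. These gene counts go by distance from the start, so the TOP2A peak need not overlap a Pol II peak.

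Of genes of the early growth and serum response, 12 of 37 with Pol II at the start had TOP2A (32.4%, 19.6 to 48.5). JUN, a subunit of the AP-1 transcription factor, had a Pol II peak of 4001 bp and 3 TOP2A peaks within 5 kb. RHOB had 4 and CCN1, a matrix-associated signalling protein, had 2. DUSP1, DUSP6 and BTG1 also had 2 each, and CEBPB and KLF6, which encode transcription factors, had 1 each. FOS, EGR1, JUNB and IER2 had Pol II and no TOP2A within 1 kb.

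Among cytoskeleton and matrix genes, 11 of 33 had TOP2A (33.3%, 19.8 to 50.4). Besides ACTB and ACTG1 these included CAV1, which encodes the coat protein of caveolae, with 2 TOP2A peaks within 5 kb, and TMSB10, an actin-binding peptide, with 1. COL4A1 and COL4A2, which encode collagen chains of basement membranes, are read in opposite directions from a shared start region and had the same 4 TOP2A peaks around it, so they are not separate observations. SPARC, a secreted collagen-binding protein, and TPM1, which encodes tropomyosin, had Pol II peaks of 10485 and 10195 bp at the start and no TOP2A within 5 kb.

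Of stress and growth arrest genes, 11 of 35 had TOP2A (31.4%, 18.6 to 48.0). They included GADD45A and GADD45B, both induced by DNA damage and stress, PLK2, FBXO32, which encodes a ubiquitin ligase subunit of muscle wasting, ARRDC3 and the glucose transporter gene SLC2A1. NEAT1 had 5 TOP2A peaks within 5 kb of its start. MALAT1, the neighbouring nuclear noncoding RNA, had a Pol II peak of 12638 bp and none. HSPA8, which encodes a constitutive chaperone, had a Pol II peak of 7318 bp and no TOP2A within 5 kb.

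Of genes listed as developmental regulators, 26 of 43 had Pol II at the start, and 10 of the 26 had TOP2A (38.5%, 22.4 to 57.5). Because the list was written with earlier results known, this share does not describe developmental regulators in general. The 10 include GPC6, which is not itself a regulator. HMGA2, an architectural chromatin protein, and GPC6, a cell-surface proteoglycan, had 4 TOP2A peaks each within 5 kb, FOXD1 had 3, and BMP4 and MEIS2 had 2 each. At GPC6 the widest Pol II peak within 1 kb of the start spanned 1195 bp (chr13:93879879-93881073). The TOP2A peak nearest the start lay outside it, at chr13:93879479-93879556. Of cytokine and YAP response genes, 3 of 11 had TOP2A, at NFKBIA, TEAD1 and SPSB1.

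Housekeeping genes had the lowest share of the lists with more than 3 genes with Pol II, at 3 of 31 (9.68%, 3.35 to 24.9). Its interval overlapped those of the other lists, and the difference was not tested. They included TOP2B, which encodes the other topoisomerase II, and PGK1, a glycolytic enzyme. GAPDH, of glycolysis, and EEF2, of translation elongation, had Pol II peaks of 8908 and 6976 bp and no TOP2A within 5 kb. The widest Pol II peak at the start had a median of 1758 bp at the 3 housekeeping genes with TOP2A and 2793 bp at those without. As a check of the labelled cell type, 3 of 7 pigment epithelium genes had Pol II at the start (PMEL, MITF and OTX2) while RPE65, TYR, RLBP1 and BEST1 had none, and 0 of the 3 had TOP2A.

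Pol II cover downstream of the start was higher or lower at genes with TOP2A than at those without, depending on the list. The stretch measured, from 1 to 6 kb downstream of the start, was not cut at the gene end. It therefore ran past genes shorter than 6 kb. Over all lists, Pol II covered a median of 73.9% of this stretch at genes with TOP2A at the start and 53.2% at those without. For the early growth and serum response genes these medians were 86.0% and 42.4%, while among cytoskeleton and matrix genes the order was the other way, at 71.0% and 91.9%. It was also the other way among housekeeping genes, at 0.6% in the 3 with TOP2A and 69.8% in the rest, and in the cytokine and YAP list the medians were 24.5% and 25.2%. The median widest Pol II peak over all lists was 2919.5 bp with TOP2A and 2380.5 bp without.

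At most of these genes TOP2A lay inside the gene rather than before it. The midpoint of the nearest TOP2A peak was downstream of the start in 44 of 50 genes (88%, 76.2 to 94.4), with a median of 400 bp into the gene and quartiles of 177 and 586 bp. It lay 100 to 600 bp downstream in 27 genes, 600 bp to 1 kb downstream in 12 and within 100 bp of the start in 6. Of all 70 pairs of a gene and a TOP2A peak within 1 kb, 59 had TOP2A downstream. The 4 TOP2A peaks around the shared start region of COL4A1 and COL4A2 enter these pairs once for each gene. Both genes also count as downstream, at 307 and 291 bp, so these counts are not all separate observations. Pol II lay mostly downstream as well: the centre of the widest Pol II peak at the start was downstream in 40 of the 50 genes with TOP2A, a median of 593.75 bp into the gene, and in 103 of 126 without. The nearest TOP2A midpoint lay on the start's side of that centre in 30 genes. Of Pol II cover within 1 kb of the start, 53.9% lay downstream in genes with TOP2A and 57.6% in those without. The recalled starts were checked by gene length and not by position. Among the 31 genes with TOP2A whose length was within 100 bp of the RefSeq length, 87.1% had it downstream.

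Named genes show the range. The nearest TOP2A midpoint stood 53 bp into DUSP1, 64 bp into PLK2 and 71 bp into RHOB. It stood 264 bp into NEAT1, 328.5 bp into ACTG1, 459.5 bp into ACTB and 492 bp into JUN. CITED2 and GADD45B had it deeper, at 776.5 and 885.5 bp. The 6 genes with TOP2A upstream were IRS2 at -19 bp, PGK1 at -164.5 bp, ZFP36L2 at -309 bp, ARRDC3 at -333 bp, TMSB10 at -423 bp and HMGA2 at -818.5 bp. A further 10 genes had TOP2A only at 1 to 5 kb from the start, 9 of them downstream of it, among them VIM at 1239 bp, SIX3 at 1120.5 bp and CDKN1A, the p21 cell cycle inhibitor, at 3304 bp.

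**Figure D5:**
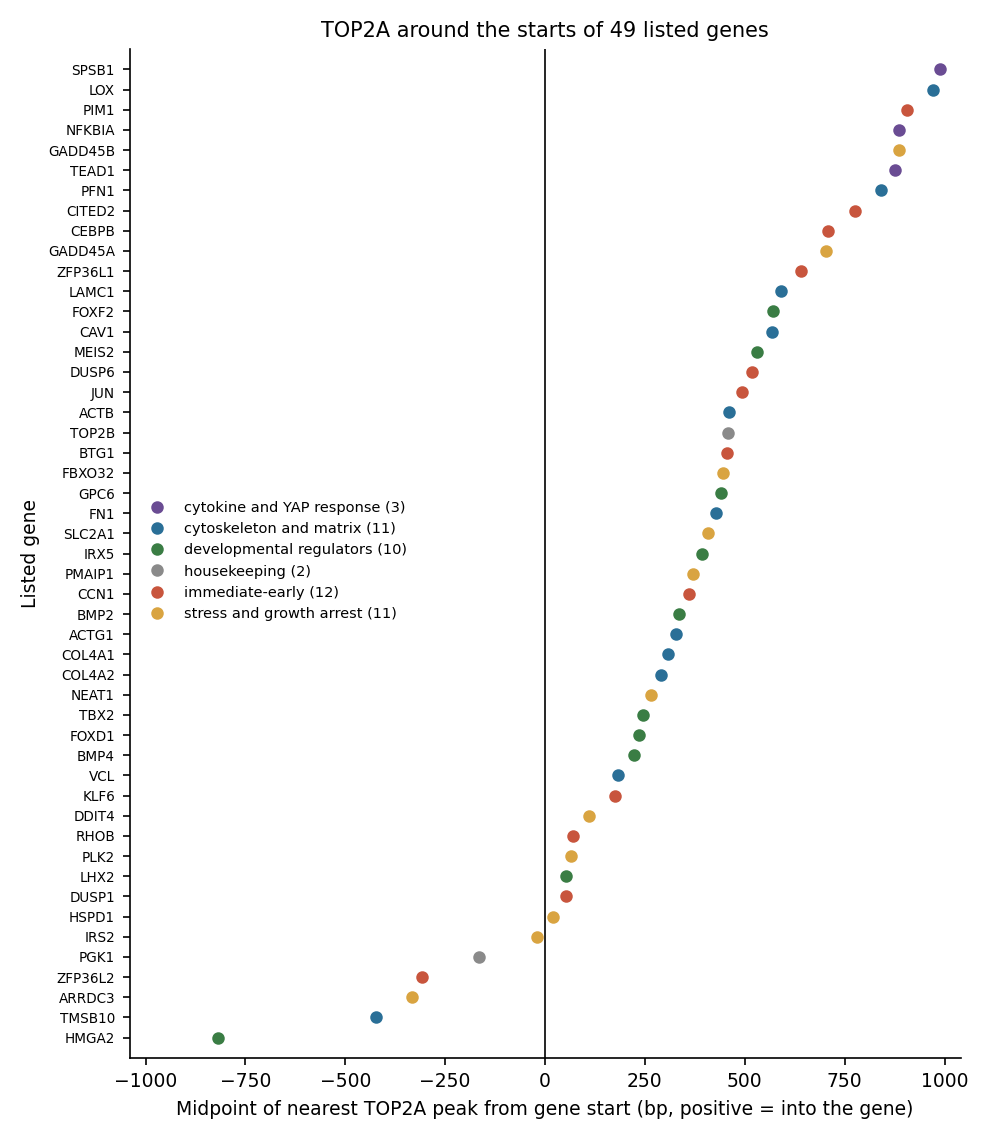
Distance of the midpoint of the nearest TOP2A peak from the start (horizontal axis, bp, positive into the gene) for 49 of the 50 listed genes with TOP2A within 1 kb of the start (vertical axis), coloured by gene list. For 43 of the 49 genes the point lies to the right of the start, and 27 lie between 100 and 600 bp.

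The share of Pol II peaks with TOP2A varied along the genome. It was lowest on chromosome 19, at 20 of 5664 (0.353%), and highest on chromosomes 4 and 10, at 2.49% each. On chromosome 10 it differed along the chromosome: past 60 Mb 102 of 3011 Pol II peaks held TOP2A (3.39%, 2.80 to 4.10), and up to 60 Mb 18 of 1806 did (0.997%, 0.631 to 1.57), against 1.29% (1.21 to 1.36) on the other chromosomes. RPE-1 is known to carry an extra copy of the distal long arm of chromosome 10, and the part of copy number in these shares was not tested. Leaving out chromosome 10 kept the direction of the neighbour and position results.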

How the data were processed

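Pol II and TOP2A were mapped by ChIP-seq, with libraries made by ChIPmentation, per the labels' protocols. Per the submitters' processing notes, the authors used Bowtie 1.2.0, MACS2 and deepTools 2.4.1 and the hg19 build. For MACS2, the version, threshold, background library and handling of replicates were not given in the sources used here. What the authors deposited is a start and an end in bp for every peak, merged over the libraries of a condition and without a score. The 2 merbarone lists were not used here.

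Positions were read as counted from 0 and are printed counted from 1. Overlap meant at least 1 bp. Matching used every eligible Pol II peak, with no random draw, and members and matches were not compared by a test, because peaks are not replicates. TOP2A positions were taken from midpoints. The hg19 positions of 229 genes were written from general knowledge, and 25 were left out because their length differed from RefSeq GRCh38.p14 by over 1 kb and over 10%, or because their strand differed. No RefSeq coordinate was used to place a gene in hg19. The promoter table gave a strand for 173 of the 229, and held an entry for 37 of 50 genes with TOP2A (74%) and 100 of 126 without (79.4%). Since both shares fall below 80%, a comparison of promoter sequence between these groups is void and none is reported. Named genes were the 30 with most TOP2A peaks within 5 kb among those with TOP2A at the start, ties going to the wider Pol II peak, and the 6 without TOP2A within 5 kb that had the widest Pol II peaks; some others were named after their values were seen. A single listed gene enters the counts but is not reported here. Members, lists and comparisons were chosen with earlier results of these data known.

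The interval functions, 5 in all, were checked against bedtools 2.31.1 and did not differ from it, and the matching was tested on simulated data. The versions were scipy 1.17.1, pandas 2.3.3, numpy 2.4.6 and matplotlib 3.10.9 under Python 3.11.15.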

Additional observations from a re-analysis of the deposited data

How the results depend on the processing

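Of 66 alternatives, 53 left the result within 1.5 times its value, or within its interval for shares by position. For Pol II peaks with TOP2A this compared the count and not the share. The count was 1129 of 31918 with Pol II peaks up to 1 kb apart joined, and 1099 of 35659 with those of at least 300 bp. Both shares are above the 1188 of 87911 (1.35%) as deposited, so that share depends on how Pol II peaks are cut and kept. Pol II peaks with TOP2A had fewer Pol II neighbours in 12 of 12 alternatives and less flank cover in 12 of 12. Joining Pol II peaks up to 1 kb apart moved most values: 70.7% of TOP2A midpoints lay in the middle 60%, neighbours within 5 kb differed by -0.472 (0.494 against 0.966), cover by -6.50 percentage points, the median gap by 9914 bp (13500 against 3586), and another Pol II peak with TOP2A within 10 kb by -0.754 points, a reversal from 4.94. Joining those up to 37 bp apart gave a gap difference of 219 bp, against 73.5 bp as deposited, and 2.74 points for another Pol II peak with TOP2A. The latter was 3.19 points with at least 50% of the TOP2A peak inside, 2.86 with Pol II peaks of at least 300 bp, and reversed to -0.0339 at a distance of 50 kb. By construction, other distances changed the neighbour counts, to -0.749 at 1 kb and -13.7 at 50 kb against -2.97 at 5 kb, and cover to -7.40 points at 50 kb against -14.8. The cause of the other moves was not tested. Leaving out chromosome 10, keeping only Pol II peaks with 1 TOP2A peak and keeping only genes near the RefSeq length were chosen after seeing the data.

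No paired analysis was possible because the libraries of each condition share 1 peak list, which also prevents leaving out a replicate. The smallest TOP2A width, 73 bp, held 517 of 1840 peaks, so TOP2A missed at the calling limit cannot be told apart from absent TOP2A.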

Other observations

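The median width of the 434 TOP2A peaks on no control Pol II peak was 79 bp, and of those on Pol II 89 bp. A control Pol II peak stood within 100 bp of 45 of them, within 1 kb of 140, within 5 kb of 176 and within 10 kb of 205. Of the 434, 23 lay in a gap of at most 1 kb between neighbouring Pol II peaks. The median gap to Pol II was 11383 bp over the 433 on a chromosome with Pol II peaks.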
